A study of Sus scrofa with 2 samples.

Results

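The CpGs described here stand alone in the lists of methylated cytosines from pig muscle. A CpG was taken as isolated when no other CpG listed in either library lay within 1000 bp on either side and when it had at least 10 reads in each library. On chromosomes 1 to 18 this left 5327 CpGs, 0.210% of the 2538648 CpGs of that depth and 18.97% of the 28081 CpGs of any depth that had no listed CpG within 1000 bp. They were set beside 1132363 near CpGs, which had the same minimum depth and another listed CpG within 50 bp.

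Methylation was read by whole-genome bisulfite sequencing in 2 female Tibetan pigs, from the longissimus dorsi, a long muscle of the back. The high-altitude pig was free-ranging in the Tibetan highland (4000 m on average). The low-altitude pig was kept on the Chengdu plain at an average of 500 m, on ordinary daily feed, and descended from animals of the breed that had lived in the lowland for several generations. With 1 pig per group, altitude, feed, housing, descent, the individual and the library cannot be told apart, and no value below has a replicate error. A level in bulk muscle averages the nuclei of all its cell types, so a change in cell makeup and a change within cells cannot be told apart either. Muscle identity was not checked against marker genes, since the files hold no gene names and no annotation of their assembly was used here.

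In mammals a methyl group sits on the cytosine of most CpGs, on both strands, and is copied onto the new strand after each replication. CpG-dense islands at promoters are usually kept free of it, whereas the scattered CpGs of the rest of the genome are usually methylated. CpGs that lie far from other CpGs are known to keep methylation less well through repeated cell division, above all within long, late-replicating stretches called partially methylated domains. Isolated positions are thus of interest as a class, apart from any difference between the pigs.

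Isolation here is a property of the lists and not of the DNA sequence. A cytosine was listed only with at least 5 reads, at least 1 methylated read and a corrected p-value below 0.05, so an unlisted neighbour can be an unmethylated CpG, a thinly covered CpG or no CpG at all. The distance, the depth and the presence of methylated reads were used to choose these CpGs and are given only as a description. No sequence around them is shown, because no genome of the files' assembly was used here, and positions are those of the files.

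The nearest listed CpG was between 1001 and 84707 bp away, with a median of 1266 bp. On the farther side the median was 2007 bp, and 675 of the 5327 CpGs (12.7%) had a stretch of over 10000 bp without a listed CpG there. Median depth was 18 reads at high and 17 reads at low altitude, with highest depths of 92 and 166 reads. Near CpGs had a median of 16 reads in both libraries and reached 28087 and 22154 reads. Isolated CpGs therefore held none of the extremely deep positions found among the near CpGs. CpGs just inside the distance limit, 772 at 1001 to 1050 bp, had mean levels of 64.1% and 63.6%, and 968 just outside it, at 951 to 1000 bp, had 64.5% and 64.0%. Of CpGs alone within 1000 bp, 617 whose smaller depth was 10 reads had 63.7% and 63.0%, and 683 whose smaller depth was 9 reads had 64.9% and 62.7%.

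Isolated CpGs were mostly methylated, but less so than near CpGs, in both pigs. Their mean level, the share of methylated reads averaged over CpGs, was 64.8% with an SD of 23.9 points in the high-altitude pig and 63.6% with an SD of 23.5 points in the low-altitude pig. Near CpGs, weighted so that their depths in both libraries matched those of isolated CpGs, had 76.5% and 75.6%. The gap was thus −11.8 points at high and −12.0 points at low altitude. It is a description of 2 libraries, because CpGs are not replicates of a pig and no test of this gap was made. Near CpGs must have a neighbour with methylated reads within 50 bp, and isolated CpGs have none listed within 1000 bp. The rule itself can thus add to the gap, and its part was not tested. In the 1675 isolated CpGs listed on both strands in both libraries the gap to near CpGs listed in that way was smaller, at −8.27 and −9.05 points.

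The whole distribution lay lower, with more CpGs in each class of low and middle level. In the high-altitude pig 17.2% of isolated CpGs (914) were below 40%, against 6.61% of depth-weighted near CpGs, and in the low-altitude pig 17.6% (935) against 6.69%. Full methylation of every read was seen at 215 and 204 isolated CpGs, 4.04% and 3.83%, against 8.77% and 8.01% of near CpGs. The middle of the range was also fuller: levels of 40 to 60% were found at 19.04% and 20.9% of isolated and at 10.9% and 11.7% of near CpGs. The middle 50% of isolated CpGs ran from 50% to 83.3% at high and from 47.6% to 82.1% at low altitude. Counting error alone gives an SD of 10.4 and 10.7 points at these depths. The SD beyond counting was 21.5 and 20.9 points at isolated CpGs and 17.2 and 16.97 points at near CpGs, so isolated CpGs also differed more from each other.

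**Figure D1:**
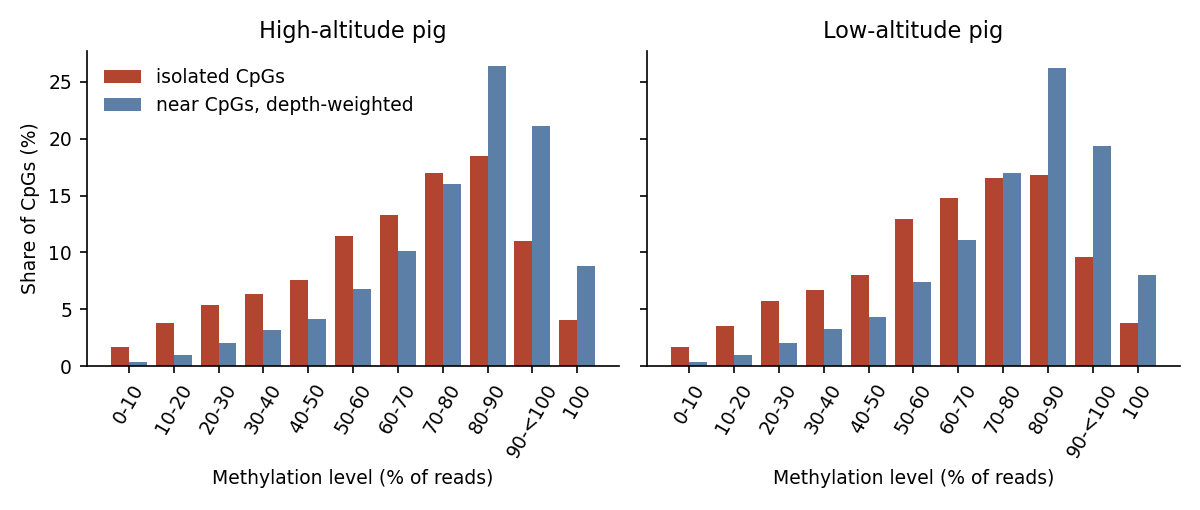
Share of CpGs (vertical axis, %) in classes of methylation level (horizontal axis, % of reads) for isolated CpGs (red) and depth-weighted near CpGs (blue), in the high-altitude pig (left) and the low-altitude pig (right). Isolated CpGs take a larger share of every class below 70% and a smaller share of every class from 80% upward in both pigs.

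Levels were mostly lower at larger distances up to 2000 bp, but not beyond. Distance was counted to listed CpGs only, so the listing rule enters this order too, and its part was not tested. Among all autosomal CpGs of the same minimum depth, those with a listed CpG 2 to 10 bp away had 79.6% in the high-altitude pig, those at 51 to 100 bp 71.4%, those at 101 to 200 bp 71.8%, those at 501 to 750 bp 67.3% and those at 751 to 1000 bp 64.9%. Within the isolated CpGs the order did not go on beyond 2000 bp. The 3509 with a neighbour at 1001 to 1500 bp had 64.2% ± 0.40 (SE over CpGs), the 657 at 1501 to 2000 bp had 63.1% ± 0.97, the 836 at 2001 to 5000 bp had 67.7% ± 0.82 and the 325 beyond 5000 bp had 66.7% ± 1.4. The low-altitude pig gave 63.0%, 62.6%, 66.2% and 65.3% in the same classes. The most isolated CpGs were thus no lower than those just past the limit. By the farther side, CpGs with a gap of over 10000 bp had 65.2% and 64.1%, close to the 64.5% and 63.6% of those whose farther gap was at most 1500 bp. The classes between them ran from 62.8% to 67.9% in the high-altitude pig, in no order of distance.

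**Figure D2:**
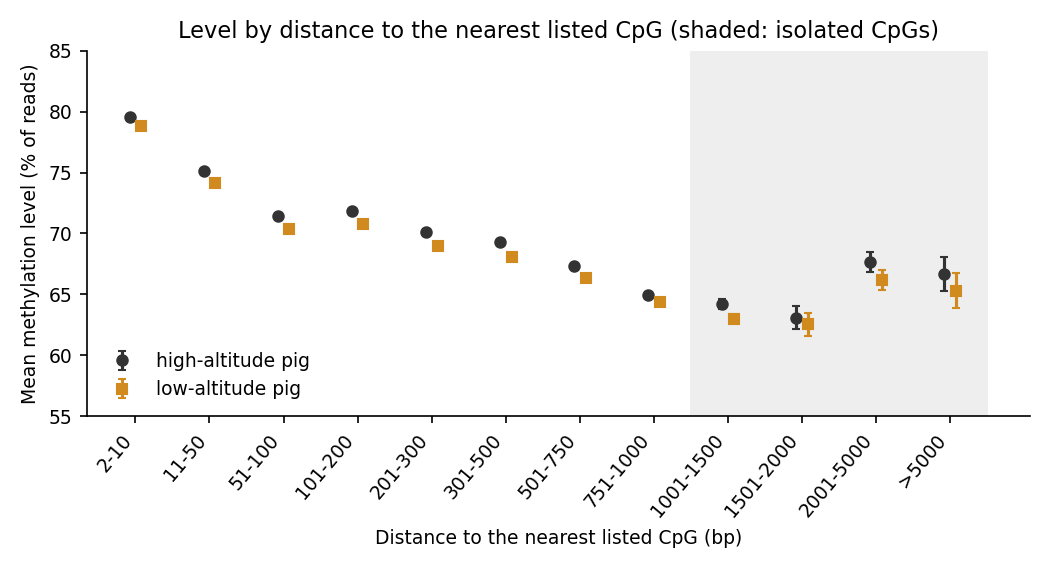
Mean methylation level (vertical axis, % of reads, from 55 to 85%) by distance to the nearest listed CpG (horizontal axis, bp, in 12 classes of unequal width) for autosomal CpGs of at least 10 reads in both libraries, with the SE over CpGs as bars. The level drops from 79.6% at 2 to 10 bp to 64.9% at 751 to 1000 bp in the high-altitude pig. The 4 shaded classes of isolated CpGs lie between 63.1% and 67.7% in the high-altitude pig and between 62.6% and 66.2% in the low-altitude pig.

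Part of this gap went with the surroundings. For each CpG the mean level of all other tested CpGs in its 100 kb bin was computed where there were at least 10 of them, which left out 201 isolated CpGs. Isolated CpGs lay in bins with a mean level of 68.5% and 67.6% in the high- and low-altitude pig, near CpGs in bins with 73.8% and 72.8%. Bins below 50% held 7.14% of isolated and 2.40% of near CpGs. Per 1000 tested CpGs, 6.85 were isolated in bins below 40%, 7.02 in bins at 40 to 50%, 2.69 at 65 to 70% and 1.06 at 80 to 85%. Isolated CpGs were thus several times as frequent among tested CpGs of poorly methylated stretches as among those of well methylated ones. A neighbour without methylated reads is not listed, so the rule itself can pick more CpGs as isolated where methylation is low. How much of these frequencies comes from the rule was not tested.

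Within bins of like level isolated CpGs were still lower than near CpGs. In bins below 40% in the high-altitude pig, 185 isolated CpGs had 27.2% ± 1.5 (SE over CpGs) and near CpGs 38.1%. At 60 to 65%, 631 isolated CpGs had 59.4% ± 0.88 and near CpGs 68.4%, and at 80 to 85%, 484 isolated CpGs had 78.1% ± 0.90 and near CpGs 82.7%. The gap had the same sign in each of the 9 classes of bins and in both pigs. Its size ran from −4.54 to −10.9 points at high and from −4.67 to −9.55 points at low altitude. Over the CpGs with a bin level, without weighting by depth, the gap between isolated and near CpGs was −11.4 and −11.6 points. Weighted to the bin classes of isolated CpGs, near CpGs had 72.1% and 71.2%, and the gap was −7.26 and −7.54 points. Against their own bin, isolated CpGs differed by −3.65 points on average in the high-altitude pig, and near CpGs by 2.48 points. Only 50.4% and 51.7% of isolated CpGs (high and low altitude) were below their bin level, against 35.2% and 35.7% of near CpGs. The mean of −3.65 points is thus not the place of a typical isolated CpG. A 100 kb bin is dominated by CpGs with close neighbours, so the bin level is not the level of the flanks of an isolated CpG. The listing rule acts within each class of bins as well, and its part in the gap at like bin level was not tested.

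**Figure D3:**
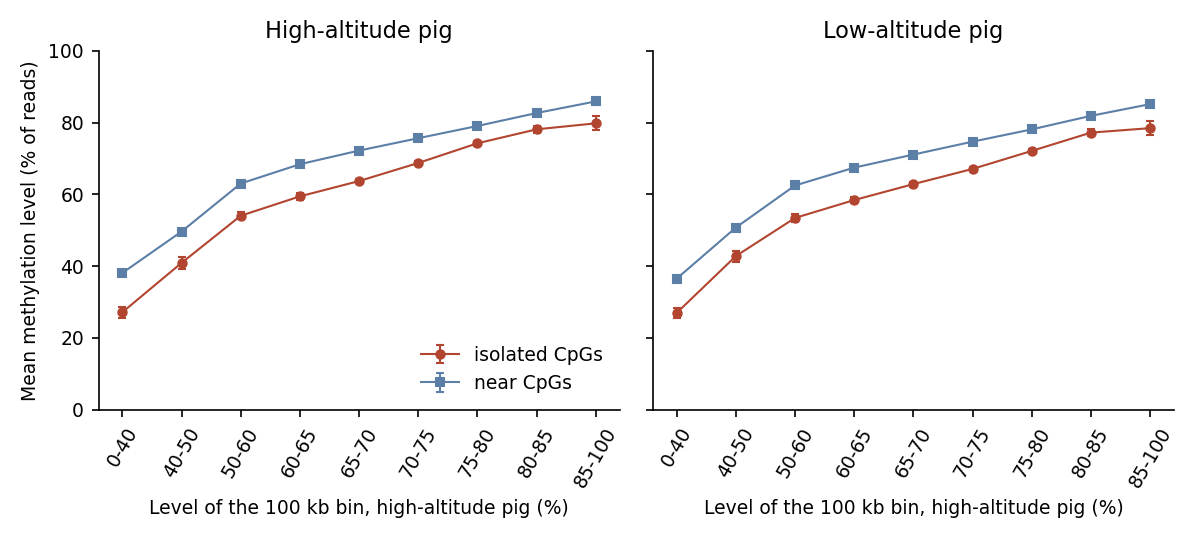
Mean methylation level (vertical axis, % of reads) of isolated CpGs (red) and near CpGs (blue) by the level of the other CpGs in their 100 kb bin in the high-altitude pig (horizontal axis, %), with the SE over CpGs as bars. In each of the 9 classes and in both pigs the isolated CpGs lie below the near CpGs, with gaps of −4.54 to −10.9 points in the high-altitude pig.

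Over a short range isolated CpGs were only slightly lower than a further tested CpG, whereas near CpGs were higher than theirs. For 2265 isolated CpGs a further tested CpG lay 1001 to 2000 bp downstream, at a median of 1369 bp, and this neighbour had 65.8% and 64.6% against 64.2% and 63.1% at the isolated CpG. For near CpGs the first tested CpG at that distance had 72.6% and 71.6%, against 76.1% and 75.2%. The levels of an isolated CpG and its neighbour had a Pearson correlation across pairs of 0.324 and 0.285, and those of a near CpG and a CpG at like distance 0.211 and 0.213. These correlations are across CpGs of the same library, whose levels carry counting error. The differences between the pigs at isolated CpGs and their neighbours had a correlation of 0.0362, which is too weak to report as a relation.

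Strand listing moved with the level and with the depth. Both strands were listed at 2347 isolated CpGs (44.1%) at high altitude and 2195 (41.2%) at low altitude, against 49.7% and 46.0% of near CpGs. Isolated CpGs listed on both strands had 69.1% and 67.2%, and those listed on a single strand 61.4% and 61.1%. Their median depths were 21 and 20 reads on both strands and 15 reads in both pigs on a single strand. Near CpGs differed less by listing, with 77.4% and 76.5% on both strands and 75.02% and 74.3% on a single strand. Of the single-strand cases 1462 were on the plus and 1518 on the minus strand at high altitude, and 1516 and 1616 at low altitude, so neither strand was much favoured. A strand without methylated reads is not listed, and its part in these levels was not tested, nor was that of depth.

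At the 1675 isolated CpGs with both strands listed in both libraries, the strands of a CpG differed almost as much as the pigs did. The mean absolute difference between strands was 15.6 points at high and 16.3 points at low altitude. Between the pigs it was 16.5 points on the plus and 16.7 points on the minus strand, and 17.2 points on opposite strands in either pairing. Counting error at single strands makes up part of each of these values.

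The deepest isolated CpGs had low levels. The 20 CpGs with 40 or more reads in both libraries had means of 19.8% and 21.3%, and the 113 whose smaller depth was 30 to 39 reads had 62.2% and 61.0%, against 64.6% to 65.8% at high and 63.5% to 64.2% at low altitude in the classes from 10 to 29 reads. Near CpGs showed a drop of the same direction, to 46.5% and 45.9% at 40 or more reads. The part of depth in these levels was not tested. The CpG with the largest smaller depth, on chromosome 10 at 22629385 to 22629386, had 3 methylated reads of 92 at high altitude (3.26%, 95% Wilson interval 1.12 to 9.15) and 6 of 127 at low altitude (4.72%, 2.18 to 9.92), all on the minus strand. Also on chromosome 10, the CpG at 23317456 to 23317457 had 6 of 75 reads (8%, 3.72 to 16.4) and 15 of 166 reads (9.04%, 5.55 to 14.4). On chromosome 13, the CpG at 3463601 to 3463602 had 4 of 67 reads (5.97%, 2.35 to 14.4) and 3 of 121 reads (2.48%, 0.847 to 7.04), in a 100 kb bin whose other CpGs had 70.3% and 72.1%. These 3 were low in both pigs, with overlapping intervals.

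The CpGs farthest from any listed CpG had no common level. The first, on chromosome 8 at 62265352 to 62265353, was 84707 bp from the nearest and had 10 of 14 reads methylated at high altitude (71.4%, 95% Wilson interval 45.4 to 88.3) and 16 of 19 at low altitude (84.2%, 62.4 to 94.5). The second, on chromosome 2 at 57107029 to 57107030 with a distance of 60604 bp, had 7 of 16 (43.8%, 23.1 to 66.8) and 4 of 18 reads (22.2%, 9.001 to 45.2). On chromosome 1 at 187235774 to 187235775, 59266 bp from the nearest, the counts were 13 of 14 (92.9%, 68.5 to 98.7) and 10 of 12 (83.3%, 55.2 to 95.3). On chromosome 16 at 47701585 to 47701586, 56893 bp from the nearest, 22 of 23 (95.7%, 79.0 to 99.2) and 16 of 16 reads (100%, 80.6 to 100) were methylated. At each of the 4 the intervals of both pigs overlapped.

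Isolated CpGs were unevenly spread over the chromosomes. Chromosome 1 held 945 of them (17.7%) and chromosome 13 held 638. Per 1000 tested CpGs their number was highest on chromosome 1, at 3.08, followed by chromosome 13 with 2.77, chromosome 11 with 2.71 and chromosome 15 with 2.65. It was lowest on chromosome 18, at 0.973, and chromosome 17, at 1.17. Of 2458 bins of 1 Mb with tested CpGs, 1666 held at least 1 isolated CpG, and the 245 fullest bins held 38.99% of all of them. The fullest were chosen after their values were seen. On chromosome 11 the bin from 39000001 to 40000000 held 23, with mean levels of 47.9% and 56.2%, and the bin from 38000001 to 39000000 held 20, with 39.3% and 46.9%. All tested CpGs of these bins had 53.7% and 56.8%, and 38.9% and 45.3%. On chromosome 12 the bin from 29000001 to 30000000 held 20, with 40.4% and 41.7%, and all its tested CpGs had 41.9% and 43.5%. In these 3 bins isolated and other CpGs were low together, and all 3 were higher in the low-altitude pig.

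On each of the 18 autosomes isolated CpGs were below near CpGs in both pigs. The level of near CpGs varied little, with an SD over autosomes of 1.09 points in the high-altitude pig, whereas that of isolated CpGs had an SD of 4.74 points. The isolated means rested on only 66 to 945 CpGs per autosome, with SEs over CpGs of 0.79 to 3.1 points in that pig. Sampling of few CpGs thus makes up part of the larger SD. The lowest chromosomes in both pigs were chromosome 12, with 52.1% ± 3.1 (SE over 71 CpGs) and 53.8% ± 2.9, and chromosome 10, with 55.03% ± 2.6 (128 CpGs) and 53.1% ± 2.6. Near CpGs of these chromosomes had 76.2% in the high-altitude pig on both. Without their fullest 1 Mb bin, chromosome 12 had 56.7% and 58.5% over 51 CpGs and chromosome 10 had 58.2% and 56.2% over 115 CpGs, so a single stretch carried part of each value. Isolated CpGs were highest on chromosome 18, with 70.7% ± 2.9 (70 CpGs) and 68.7% ± 2.9, the highest value in both pigs. Next came chromosome 9 in the high-altitude pig, with 68.9% ± 1.2, and chromosome 17 in the low-altitude pig, with 67.9% ± 2.6. These neighbours in the order did not differ beyond their SE.

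**Figure D4:**
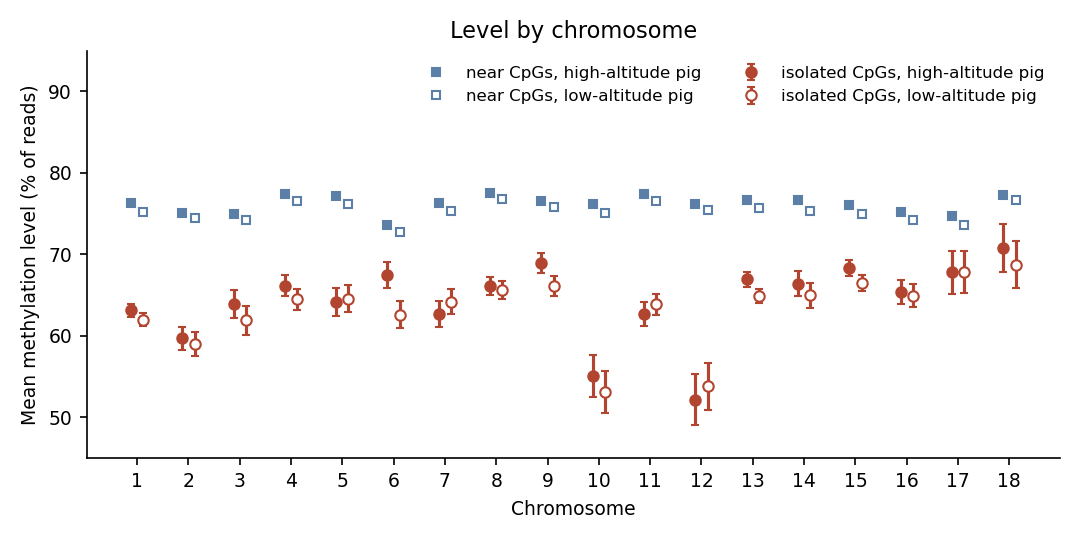
Mean methylation level (vertical axis, % of reads, from 45 to 95%) by chromosome (horizontal axis) for isolated CpGs (circles, with the SE over CpGs) and near CpGs (squares), filled for the high-altitude and open for the low-altitude pig. Isolated CpGs lie below near CpGs on all 18 chromosomes and lowest on chromosomes 10 and 12.

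The comparison of the pigs asked whether isolated CpGs differed between the highland animal and its lowland counterpart. Their mean level was slightly lower in the low-altitude pig. The difference, low minus high altitude, was −1.19 ± 0.23 points (SE over 5327 CpGs) with a median of −0.89 points, against −0.91 points at depth-weighted near CpGs and −1.01 points at all 2538648 autosomal CpGs tested. Of the isolated CpGs 2756 were lower, 2441 higher and 130 equal. The SE covers the spread along the genome in 2 libraries and not the spread between pigs, and the value of near CpGs lay within 2 SE of that of isolated CpGs. That the pigs differed more at isolated than at near CpGs was therefore not shown.

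Single CpGs kept their place between the pigs to a fair degree. Across isolated CpGs the levels of both pigs had a Pearson correlation of 0.739, and across depth-weighted near CpGs 0.649, given as a description of sets whose levels spread unequally. The SD of the difference was 17.1 points, of which counting error gives 14.98, so the SD beyond counting was 8.26 points. At near CpGs it was 9.19 points. Low levels recurred: 132 isolated CpGs (2.48%) were below 20% and 581 (10.9%) below 40% in both pigs, against 0.526% and 3.31% of near CpGs. At 321 isolated CpGs (6.03%) both pigs had at least 90%, against 14.2% of near CpGs. The 291 isolated CpGs below 20% in the high-altitude pig had a mean of 12.5% there and 23.4% in the low-altitude pig. The 274 below 20% in the low-altitude pig had 12.3% there and 23.2% in the high-altitude pig. A set chosen for low values in a library lies higher in the other through counting error alone, in either direction, so these shifts are not read as a change between the pigs.

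Of the 18 autosomes 13 had a lower and 5 a higher mean at isolated CpGs in the low-altitude pig, whereas all tested CpGs were lower on each of the 18. The largest difference was on chromosome 6, with 67.5% and 62.6% over 191 CpGs, −4.93 ± 1.3 points (SE over CpGs), and it was −4.67 ± 1.3 points without the fullest 1 Mb bin. Chromosome 9 had 68.9% and 66.1%, −2.89 ± 0.88 points. All tested CpGs of these chromosomes differed by −1.07 and −0.89 points. Chromosome 7 had 62.6% and 64.2%, 1.52 ± 1.2 points, chromosome 12 had 1.63 ± 1.8 points and chromosome 11 had 1.18 ± 1.1 points, which were within 2 SE of 0. Without its fullest 1 Mb bin, from 39000001 to 40000000, chromosome 11 had 0.59 ± 1.1 points. On 5 chromosomes, each of them lower in the low-altitude pig, the mean difference was more than 2 SE from 0. Chromosome differences were picked from 18 and were not tested.

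Few isolated CpGs were called as different between the libraries. Every nuclear CpG with 10 or more reads in both libraries was compared between the libraries by Fisher's exact test, two-sided, on methylated and unmethylated reads, with Benjamini-Hochberg adjustment over all 2772902, and was called when the adjusted p was under 0.05 and the levels were 25 or more points apart. Of these CpGs 9189 were called, 0.331% (0.182% lower and 0.149% higher at low altitude). Among the isolated CpGs 7 of 5327 were called, 0.131% (95% exact binomial interval 0.0528 to 0.271%), of which 4 were lower and 3 higher. Of all autosomal CpGs tested 0.347% were called, and of depth-weighted near CpGs 0.403%. The called share did not fall steadily with distance. At 751 to 1000 bp, just short of the limit, 40 of 9059 CpGs were called, 0.442%, against 0.142% at 1001 to 1500 bp. At an unadjusted p below 0.05 the share was 5.29% of isolated (282 CpGs, 154 lower and 128 higher) and 5.43% of near CpGs, which is nearly the same. The called share of isolated CpGs was 0.250% (22 of 8808) and 0.290% (27 of 9295) when isolation was judged from the high- or the low-altitude list alone. Both shares were higher than with the union of the lists. Their differences from near CpGs were −0.139 and −0.0938 points, on 22 and 27 calls, and no interval was computed for them. Differences of at least 25 points, called or not, were found at 745 isolated CpGs (13.99%) and at 11.4% of depth-weighted near CpGs. Counting error gives the difference an SD of 14.98 points at isolated and 13.6 points at depth-weighted near CpGs. The SD beyond counting was 8.26 and 9.19 points, so the larger share is not read as a larger difference between the pigs.

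The called CpGs had large differences, from 60.7 to 84.2 points. By the rule for named CpGs, which asked for both strands in both libraries, 3 were named, and the other 4 were added after their values were seen. With 1 pig per group each test compares 2 libraries, not 2 altitudes. All adjusted p-values that follow are from the two-sided Fisher's exact test with Benjamini-Hochberg adjustment over all 2772902 CpGs.

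Among the 3 with both strands, the CpG on chromosome 7 at 49750944 to 49750945 rose most. It had 3 of 19 methylated reads at high altitude (15.8%, 95% Wilson interval 5.52 to 37.6) and 13 of 13 at low altitude (100%, 77.2 to 100), a difference of 84.2 points (exact test, adjusted p = 0.00465). The plus strand had 1 of 12 and 5 of 5 reads and the minus strand 2 of 7 and 8 of 8, so both strands moved together. Its nearest listed CpG was 1197 bp away. The other CpGs of its 100 kb bin had 76.7% and 75.6%, so the bin as a whole hardly differed.

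On chromosome 16 at 15675877 to 15675878, with 4525 bp to the nearest listed CpG, 6 of 24 reads (25%, 95% Wilson interval 11.999 to 44.9) and 17 of 19 reads (89.5%, 68.6 to 97.1) were methylated. The difference was 64.5 points (exact test, adjusted p = 0.0197), with 2 of 13 and 10 of 11 reads on the plus and 4 of 11 and 7 of 8 on the minus strand. On chromosome 2 at 128009504 to 128009505 the level fell from 25 of 28 reads (89.3%, 72.8 to 96.3) to 4 of 14 (28.6%, 11.7 to 54.6), a difference of −60.7 points (exact test, adjusted p = 0.0423). This was the call closest to the threshold, and its strands had 8 of 9 and 1 of 6 reads on plus and 17 of 19 and 3 of 8 on minus. The bins of both CpGs had like levels in the pigs, 67.3% and 66.4% on chromosome 16 and 75.6% and 72.0% on chromosome 2.

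Of the other 4 CpGs, 3 were listed on a single strand in both libraries. Their other strand could not be compared, and sequence differences between the pigs were not examined at any called CpG. On chromosome 15 at 21237934 to 21237935, 24 of 30 plus-strand reads (80%, 95% Wilson interval 62.7 to 90.5) and 1 of 23 (4.35%, 0.772 to 21.0) were methylated, a difference of −75.7 points (exact test, adjusted p = 0.000148). On chromosome 4 at 134608353 to 134608354 all 18 plus-strand reads were methylated at high altitude (100%, 82.4 to 100) and 9 of 27 at low altitude (33.3%, 18.6 to 52.2), a difference of −66.7 points (exact test, adjusted p = 0.00547). On chromosome 8 at 49992416 to 49992417 the direction was the opposite, with 12 of 31 minus-strand reads (38.7%, 23.7 to 56.2) and 22 of 22 (100%, 85.1 to 100), a difference of 61.3 points (exact test, adjusted p = 0.00268). The remaining CpG, on chromosome 2 at 127048211 to 127048212, was listed on both strands at high altitude and on the plus strand at low altitude. It had 24 of 28 reads (85.7%, 68.5 to 94.3) and 5 of 22 (22.7%, 10.1 to 43.4), a difference of −63.0 points (exact test, adjusted p = 0.00887).

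At all 7 the higher library had at least 80% and the lower at most 38.7%, and the intervals of the pigs did not overlap. Their median size of 64.5 points was close to the 62.7 points of all called autosomal CpGs. Calls were chosen by the adjusted p and the size of the difference, so these values describe the calls and add no support to them.

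**Figure D5:**
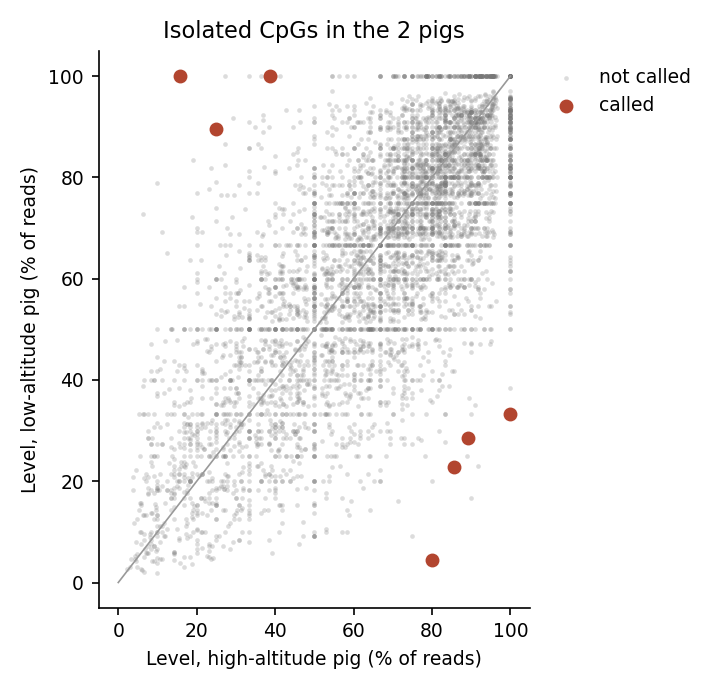
Methylation level of each of the 5327 isolated CpGs in the high-altitude pig (horizontal axis, % of reads) and the low-altitude pig (vertical axis, % of reads), with the line of equal levels; red points are the 7 called CpGs. Most points lie along the line, with 3 called CpGs at the upper left and 4 at the lower right.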

How the data were processed

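Per the labels' protocols, muscle DNA with added lambda DNA was sheared, ligated to methylated adapters, treated with bisulfite, amplified and run on an Illumina sequencer. The submitters' processing notes name Bismark 0.12.5. Genome build, read filters and the handling of duplicates were not stated in these sources. Each deposited line gives, per the file headers, counts of methylated and unmethylated reads, the level as a fraction, a p-value and a corrected p-value. Every deposited line was a CG cytosine with at least 5 reads and 1 methylated read, and the largest corrected p-values were 0.0489 and 0.0498. The autosomal lists held 9527968 cytosines with 91619676 reads at high and 9227228 with 87482185 reads at low altitude, with a median of 8 reads per cytosine in both.

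From the counts, the strands of each CpG were summed over the cytosines listed in a library and levels were methylated over all reads, without correction for non-conversion (Python 3.11.15, NumPy 2.4.6, pandas 2.3.3, statsmodels 0.14.6). Near CpGs were weighted to the joint depth classes of isolated CpGs, with 8 classes per library. The test was checked against SciPy 1.17.1 and tested on simulated data. There, 0 of 100 well methylated isolated CpGs lowered by 40 points were called, and 6 of 100 lowered by 60 points. No other CpG was changed in the simulation, which makes the adjustment stricter than in the data. Intervals cover counting error only, since no molecular identifiers are described. CpGs named were the 5 largest called rises and falls with both strands listed in both libraries, the 4 farthest from a listed CpG and the 3 deepest by the smaller depth. The CpG set and tests were chosen with earlier results of these data known. Alternatives covered distance, depth, listing and call limits. Chromosome X, unplaced scaffolds and mitochondrial DNA were left out of the levels. X and scaffolds entered the test.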

Additional observations from a re-analysis of the deposited data

How the results depend on the processing

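No paired analysis was possible because each group has 1 pig, and for the same reason no replicate could be left out. The signs of the gap to near CpGs and of the difference between the pigs held in all alternatives run. With a limit of 500 bp (53581 CpGs) the levels were 66.6% and 65.7% (high and low altitude), the gaps to near CpGs −9.97 and −9.99 points, and 170 CpGs (0.317%) were called, a difference from near CpGs of −0.129 points. With 2000 bp (1161 CpGs) they were 67.4% and 66.0%, −9.07 and −9.60 points, and 1 call. With at least 20 reads (1200 CpGs) they were 63.9% and 62.6%, −12.4 and −12.7 points, and 0.5% were called, a difference from near CpGs of −0.78 points. Isolation judged from the high-altitude list alone gave 65.1% and 64.0%, −11.5 and −11.7 points and 22 calls. From the low-altitude list alone it gave 65.3% and 64.0%, −11.4 points at high altitude, and 27 calls (0.29%), a difference from near CpGs of −0.0938 points. Near CpGs taken within 100 bp gave gaps of −10.1 and −10.3 points, within 20 bp −14.1 and −14.5 points, and without weighting by depth −11.4 and −11.7 points. At an adjusted p below 0.01 the called share differed from near CpGs by −0.0287 points, with 5 isolated CpGs called. CpGs listed on both strands in both libraries, an alternative chosen after seeing the data, had 70.01% and 68.3%, gaps of −8.27 and −9.05 points and a difference between the pigs of −1.75 points. Also chosen after seeing the data, bins of 20 kb and 1000 kb gave gaps at like bin level of −7.61 and −8.43 points at high and −7.91 and −8.67 points at low altitude. The size of the gap thus moved with the limits that define both sets. The cause was not tested. Depth limits single CpGs: at a median of 18 and 17 reads, 7 of the 745 isolated CpGs that differed by 25 points or more were called, so a missing call does not show like levels, also where the difference was large.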

Other observations

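CpGs with no listed CpG within 1000 bp that did not reach 10 reads in each library, or were absent from a list, are given here as values. Listed in both libraries but under 10 reads in 1 or both were 6458, with mean levels of 67.5% at high and 66.5% at low altitude. A further 8378 were listed at high altitude only, with a mean of 64.9%, and 7918 at low altitude only, with 64.1%, both with a median of 5 reads. Of these, 861 and 805 had at least 10 reads, with means of 58.2% and 54.8%. Absence from the other list can mean few reads or no methylated read, which cannot be told apart, so these are no differences between the pigs.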
